A study of Homo sapiens with 12 samples.

Results

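RNA was compared between SW480 cells transfected with a plasmid that expresses HKDC1 (pCMV6-HKDC1) and SW480 cells transfected with the matching vector without an insert (pCMV6-Entry). SW480 is an established human colorectal cancer cell line. The comparison took 6 of the 12 libraries of the series, 3 with pCMV6-HKDC1 and 3 with pCMV6-Entry, chosen by the line and plasmid in their labels. The other 6 libraries hold the same plasmids in COLO320DM, another colorectal cancer line, and entered here only for the estimate of spread and for 1 comparison between the lines. Per the labels, cells of every group received 10 µg of plasmid with Lipofectamine 2000 in Opti-MEM for 24 h, and standard medium was then put back. The control cells therefore also carried a plasmid and had been through transfection, and HKDC1 was driven by a CMV promoter in a line that has HKDC1 mRNA of its own. The share of cells that took up plasmid and the time from the medium change to RNA extraction are not stated in the labels. Nor do they state if the replicates were grown apart, and p-values therefore reflect only how these samples vary, which may be technical variation. Of the 60623 genes in the deposited count table, 23684 passed the filter on low counts and were tested. The series was designed to look for gene expression behind growth of the transfected cells.

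HKDC1 belongs to the hexokinases, the enzymes that add phosphate to glucose and so commit it to glycolysis and its side branches. HK1 and HK2 are the widespread members. Several of the gene groups described here are stress and growth responses of cultured epithelial cells. Chaperones of the HSP70 and HSP90 families hold and refold proteins, and heat shock factor induces many of their genes when unfolded protein builds up. Immediate early genes such as those of the FOS, JUN and EGR families encode transcription factors that growth factor and stress signals switch on within a short time.

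The SW480 libraries held 35116239 to 41140908 counts with pCMV6-HKDC1 and 35911723 to 45451279 with pCMV6-Entry. Mitochondrially encoded genes took 6.41 to 7.17% of counts with pCMV6-HKDC1 and 6.32 to 7.40% with pCMV6-Entry. Of 10 colonic epithelial markers, 9 averaged at least 1 CPM (TMM-scaled counts relative to library size): KRT8, a keratin of simple epithelia, lay at 3194 to 4455 CPM with pCMV6-HKDC1 and 3199 to 4614 CPM with pCMV6-Entry. CDX1, an intestinal transcription factor, was the exception, at 0.227 to 0.318 CPM with pCMV6-HKDC1 and 0.156 to 0.396 CPM with pCMV6-Entry. Among 10 markers of blood, vessel, stromal and neuroendocrine cells, CD68 and SYP alone averaged 1 CPM or more, and PTPRC, which marks white blood cells, stayed at or below 0.049 CPM with pCMV6-HKDC1 and 0.066 CPM with pCMV6-Entry. The 10 other-cell markers summed to 9.64, 13.7 and 13.2 CPM with pCMV6-HKDC1, against 9.73, 19.6 and 17.4 CPM with pCMV6-Entry. The 6 of them that were tested had a median log2 fold change of -0.34 without the block, 0 were called, and their part in the results was not tested.

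Replicate 1 stood apart from replicates 2 and 3 in both groups. A chi-square of the counts per degree of freedom, which is near 1 where libraries differ by sampling alone, was 56.7 and 47.6 between replicate 1 and the other pCMV6-HKDC1 libraries and 10.1 between replicates 2 and 3. With pCMV6-Entry the same values were 82.9, 81.9 and 4.77. Libraries of the same number deviated together from their group means: over 17336 genes the correlation of these deviations between pCMV6-HKDC1 and pCMV6-Entry was 0.884 for number 1, 0.703 for number 2 and 0.53 for number 3. Libraries of different numbers, 2 against 3, deviated together slightly more, with values of 0.732 and 0.605, so the check separates number 1 from the rest but not 2 from 3. What replicate 1 shares in the laboratory is not stated, so 2 fits are given below: 1 without the pairing, and 1 with the replicate number as a block (the replicate block).

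HKDC1 mRNA was far higher with its plasmid in all 3 replicates. Per length, HKDC1 reached 6712, 6780 and 7976 TPM (length-scaled transcript abundance) with pCMV6-HKDC1, against 19.2, 20.0 and 19.1 TPM with pCMV6-Entry. The groups did not overlap, and the lowest pCMV6-HKDC1 library was far above the highest pCMV6-Entry library. In CPM by library total, HKDC1 averaged 12879 ± 1172 with pCMV6-HKDC1 and 35.0 ± 0.770 with pCMV6-Entry (SD, n = 3 each), a 368-fold ratio, and the exact two-sided permutation test gave p = 0.1, the smallest that 3 against 3 allows. The log2 fold change was 8.55 without the block (edgeR quasi-likelihood test, adjusted p = 5.28e-11). HKDC1 ranked 14 to 18 among all genes by TPM with pCMV6-HKDC1 and 6137 to 6650 with pCMV6-Entry. Whether a read comes from the plasmid or from the chromosome is not recorded in a gene count.

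**Figure D1:**
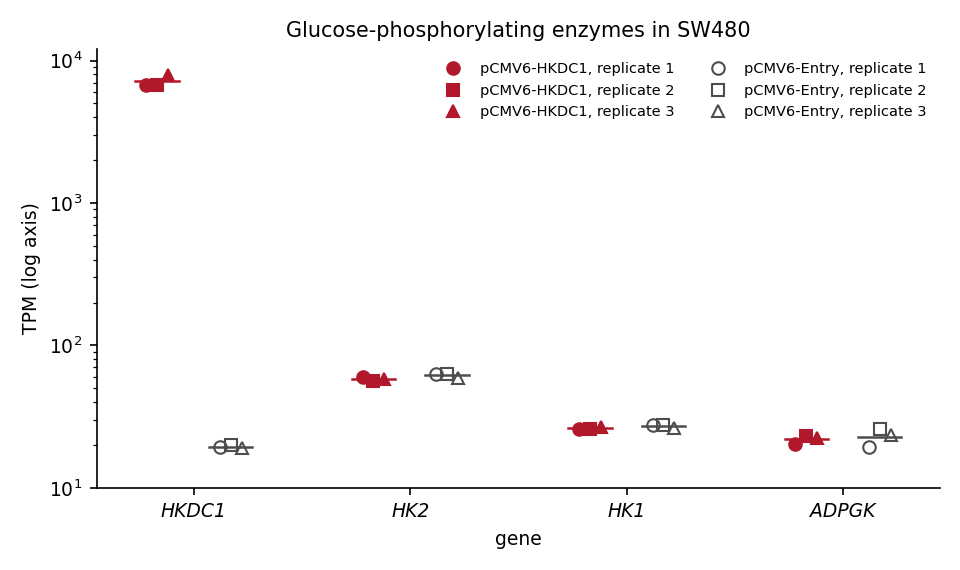
TPM on a log axis of HKDC1, HK2, HK1 and ADPGK in each SW480 library, with pCMV6-HKDC1 (filled) left of pCMV6-Entry (open), marker shape giving the replicate and bars the group mean. HKDC1 stands at 6712 to 7976 TPM with its plasmid, above the 56.0 to 60.1 TPM of HK2 in the same libraries, while in pCMV6-Entry libraries it lies below HK2 and HK1.

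HK2, HK1 and ADPGK, which also phosphorylate glucose, did not pass the test in either fit. HK2 was at 60.1, 56.0 and 58.1 TPM with pCMV6-HKDC1, against 62.7, 63.4 and 58.7 TPM with pCMV6-Entry. HK1 was at 25.97, 26.1 and 26.6 TPM with pCMV6-HKDC1, against 27.5, 27.8 and 26.4 TPM with pCMV6-Entry. ADPGK, which uses ADP as the phosphate donor, was at 20.5 to 23.1 TPM with pCMV6-HKDC1 and 19.4 to 25.7 TPM with pCMV6-Entry. All 3 ranges overlapped, and the log2 fold changes without the block were -0.06 for HK2, -0.03 for HK1 and -0.02 for ADPGK. HK3 reached at most 0.0180 TPM with pCMV6-HKDC1 and 0.0601 TPM with pCMV6-Entry. HKDC1 thus made up 98.4 to 98.7% of the summed hexokinase TPM with pCMV6-HKDC1 and 14.6 to 14.9% with pCMV6-Entry, where HK2 held 46.0 to 48.6% and HK1 20.3 to 21.4%.

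Genes of glucose use downstream of the hexokinase step were not called. Of the 24 tested genes of glycolysis and glucose transport, 0 were called in either direction in either fit, 10 had a positive log2 fold change, and the median was -0.02 without and -0.03 with the replicate block, beside 0.00 over all genes tested. Lactate dehydrogenase LDHA was at 1609, 1058 and 1045 CPM with pCMV6-HKDC1, against 1559, 861 and 963 CPM with pCMV6-Entry. Each pair was higher with pCMV6-HKDC1, yet the groups overlapped and the blocked log2 fold change was 0.15 (adjusted p = 0.27). The glucose transporter SLC2A1 was lower in each pair, at 444, 298 and 315 CPM with pCMV6-HKDC1, against 491, 321 and 322 CPM with pCMV6-Entry. Of the 24 genes, 8 were lower and 4 higher in all 3 pairs, beside 14.4% and 14.0% of all tested genes. None of the 14 pentose phosphate and hexosamine genes, nor of the 22 genes of pyruvate entry and the TCA cycle, was called in either fit. Their medians without the block were -0.01 and 0.02 on the log2 scale.

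Around the HKDC1 gene, counts rose for the overlapping antisense gene alone. AL596223.2 shares 2211 bases with HKDC1 on the opposite strand, at the 3′ end of HKDC1. It was at 1583, 1524 and 1811 CPM with pCMV6-HKDC1, against 2.80, 2.37 and 2.81 CPM with pCMV6-Entry. Its count was 11.7 to 12.7% of the HKDC1 count with pCMV6-HKDC1 and 6.82 to 8.26% with pCMV6-Entry, and without a stated strand the reads of these 2 genes cannot be told apart. A further overlapping gene, AL596223.1, stayed at 0.286 to 0.569 CPM with pCMV6-HKDC1 and 0.285 to 0.545 CPM with pCMV6-Entry. Within 500000 bases of HKDC1, 0 of 14 other tested genes were called in either fit, with blocked log2 fold changes from -0.51 to 0.45. Of the direct neighbours, SUPV3L1 had a log2 fold change of -0.08, VPS26A of 0.07 and TSPAN15 of 0.04 without the block. GH1, the growth hormone gene whose polyadenylation signal is common in expression vectors, was at 3.16, 2.81 and 3.58 CPM with pCMV6-HKDC1, against 3.94, 2.997 and 2.53 CPM with pCMV6-Entry.

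Beyond HKDC1, the number of genes called depended on whether the pairing was used. Without the block, 3 of 23684 genes (0.0127%) were called, all higher with pCMV6-HKDC1: HKDC1, AL596223.2 and HSPA6. Here and below, called means a Benjamini-Hochberg adjusted p under 0.05 over all tested genes. The blocked fit called 39 genes higher (0.165% of those tested) and 141 lower (0.595%). These shares are the background for the blocked calls in every gene list. The median log2 fold change over all tested genes was 0.00 in both fits. An unadjusted p under 0.05 was reached by 356 of the 23684 genes without the block and by 2360 with it. Where nothing differs, a share of 0.05 of the tests is expected to reach it. The 356 lie below that share and the 2360 above it. Apart from the 3 genes above, the adjusted p without the block was 0.68 for HSPA7 and 1 for all other tested genes named here, so none of the further genes below was called in that fit. With replicate 1 of both SW480 groups left out and no block, an alternative chosen after seeing the data, 4 of the 39 higher and 2 of the 141 lower genes were called, TRPV6 and UPP1 among the lower. DESeq2 with the replicate block called 34 higher and 64 lower, and limma-voom with the block called 24 higher and 133 lower. The blocked changes were small: 5 of the 39 and 7 of the 141 exceeded 2-fold.

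The blocked calls came mostly from pairs 2 and 3. Without pair 2 the blocked fit called 13 genes, of which 10 were among the 180, and without pair 3 it called 49, of which 30 were among the 180. Without pair 1 it called 537 genes, among them 173 of the 180. The genes called higher had median log2 ratios of 0.13, 0.42 and 0.39 in pairs 1, 2 and 3, and those called lower had medians of -0.16, -0.49 and -0.53. Of the 141 lower genes, 127 were lower in all 3 pairs, as were 14.4% of all tested genes, and 13 had groups that did not overlap, as did 2.28% of all tested genes. All 39 higher genes were higher in all 3 pairs, as were 14.0% of all tested genes, and 7 had groups that did not overlap, as did 2.16%. The blocked fit chose these genes by the same pair differences, so these shares are not separate support for the calls. These genes also separate replicate 1 from the rest: in 110 of the 141 lower genes (78%) both replicate 1 libraries held the 2 lowest values, beside 28.4% of all tested genes, and in 28 of the 39 higher genes (71.8%) they held the 2 highest, beside 27.1%. The part of this difference between replicates in the calls was not tested.

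**Figure D2:**
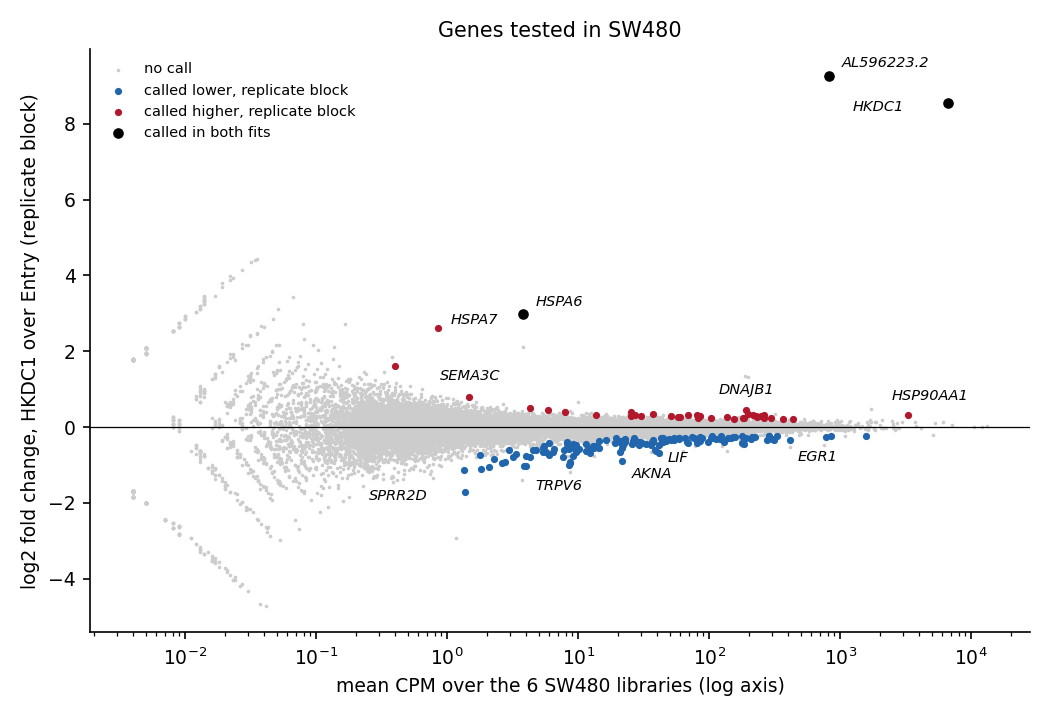
Blocked log2 fold change of pCMV6-HKDC1 over pCMV6-Entry against the mean CPM (log axis) of each of the 23684 genes tested, with black for calls in both fits, and red and blue for genes called higher and lower with the replicate block. HKDC1, AL596223.2 and HSPA6 stand above 2.9 on the log2 scale, and most of the 141 lower calls lie between 0 and -1.

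Of the called genes, 6 of the 39 higher and 16 of the 141 lower overlap another called gene in the table, such as HSPE1 with the readthrough gene HSPE1-MOB4, PLAU with C10orf55, LIF with LIF-AS2 and IER3 with HCG20. Reads in these shared stretches cannot be assigned to 1 member, so the pairs are not separate calls.

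HSPA6 was the only gene outside the HKDC1 locus called in both fits with all 12 libraries. When the SW480 libraries were fitted alone without the block it was not called (adjusted p = 0.186), while every blocked alternative that gave it a value called it. It encodes a stress-inducible HSP70 that is nearly silent in unstressed cells. HSPA6 was at 6.43, 5.87 and 7.99 CPM with pCMV6-HKDC1, against 1.30, 0.572 and 0.748 CPM with pCMV6-Entry. Every pCMV6-HKDC1 library was above every pCMV6-Entry library, and the log2 fold change was 2.95 (adjusted p = 0.00186) without the block and 2.97 ± 0.20 (SE, adjusted p = 6.19e-13) with it. HSPA7, an HSPA6 copy on the same chromosome, was at 1.17, 1.42 and 1.80 CPM with pCMV6-HKDC1, against 0.311, 0.109 and 0.286 CPM with pCMV6-Entry. The groups again did not overlap, and HSPA7 was called higher with the replicate block only (log2 fold change 2.62 ± 0.37, adjusted p = 0.000111). Reads of these 2 near-identical genes may have been shared out between them by the counting.

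The start regions of 2 of the called chaperone genes show the heat shock element, the site that heat shock factor reads, and are printed for that reason. Both come from RefSeq on GRCh38.p14 and run from 250 bases before the gene start to 50 after it: chr1:161524290-161524589 on the plus strand for HSPA6 and chr9:33025023-33025322 on the plus strand for DNAJA1. Capitals mark GAANNTTC or TTCNNGAA, searched on both strands, where neighbouring matches may overlap. In HSPA6 they begin 180, 74 and 69 bases before the start, where the matches at 74 and 69 overlap. In DNAJA1 they begin 198 bases before the start and at bases 4 and 9 after it.
HSPA6: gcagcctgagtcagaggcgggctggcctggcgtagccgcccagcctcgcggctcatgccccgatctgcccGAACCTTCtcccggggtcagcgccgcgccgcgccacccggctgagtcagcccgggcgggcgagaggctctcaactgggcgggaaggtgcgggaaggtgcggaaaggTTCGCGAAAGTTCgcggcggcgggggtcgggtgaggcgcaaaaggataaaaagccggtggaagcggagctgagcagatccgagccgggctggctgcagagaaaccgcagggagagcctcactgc
DNAJA1: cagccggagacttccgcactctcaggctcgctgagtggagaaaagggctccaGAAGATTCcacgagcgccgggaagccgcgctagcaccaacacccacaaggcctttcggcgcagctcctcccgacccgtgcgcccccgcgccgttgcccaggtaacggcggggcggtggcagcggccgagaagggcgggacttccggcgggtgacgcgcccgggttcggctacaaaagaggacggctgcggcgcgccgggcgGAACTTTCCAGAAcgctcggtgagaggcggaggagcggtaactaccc
This element was found in 13.7% of all 27305 promoters of this length and in 10.3% of those of tested genes. It was in 4 of the 25 promoters of genes called higher (16%), in 4 of the 99 of genes called lower (4.04%), and in 6 of the 12 of the HSP70 list (50%).

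HSPA1A, HSPA1B and HSPA8 were also higher with pCMV6-HKDC1 in each pair, most so in pairs 2 and 3, but did not pass the test. HSPA1A, the main stress-inducible HSP70 gene, was at 321, 172 and 257 CPM with pCMV6-HKDC1, against 252, 55.8 and 61.4 CPM with pCMV6-Entry. Replicate 1 of pCMV6-Entry lay within the range of the pCMV6-HKDC1 libraries, so the groups overlapped, and the blocked log2 fold change of 1.34 had an adjusted p of 0.384. Its near-identical copy HSPA1B gave 346, 183 and 267 CPM with pCMV6-HKDC1, against 268, 60.3 and 65.8 CPM with pCMV6-Entry. AL671762.1, which overlaps HSPA1B over 1421 bases on the same strand, was called higher with the block, at 249.8, 189 and 221 CPM with pCMV6-HKDC1, against 211, 140.5 and 134 CPM with pCMV6-Entry (log2 fold change 0.46, adjusted p = 0.000205). HSPA8, the constitutive HSP70, was at 3093, 1195 and 1370 CPM with pCMV6-HKDC1, against 2950, 737 and 878 CPM with pCMV6-Entry, and was not called (blocked log2 fold change 0.47, adjusted p = 0.15). Over the 13 tested genes of the HSP70 and HSP110 list, 1 was called higher, 0 lower and 11 had a positive log2 fold change, with a median of 0.16 in both fits. That median was 0.35, 0.13 and 0.16 when pair 1, 2 or 3 was left out of the blocked fit, and -0.0025 without pCMV6-HKDC1 replicate 1 in the fit without the block.

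The partners of HSP70 and HSP90 gave smaller calls in the same direction. DNAJB1, the J-domain protein that hands substrates to inducible HSP70, was at 287, 174 and 190.2 CPM with pCMV6-HKDC1, against 257, 131 and 142 CPM with pCMV6-Entry. DNAJA1, another J-domain protein of the cytosol, was at 334, 178 and 186 CPM with pCMV6-HKDC1, against 320.3, 126 and 142 CPM with pCMV6-Entry. Each pair was higher with pCMV6-HKDC1 for both genes, while the groups overlapped because replicate 1 was high in both. HSP90AA1, the inducible HSP90, was at 5242, 2757 and 2815 CPM with pCMV6-HKDC1, against 4927, 1935 and 2173 CPM with pCMV6-Entry. HSPE1, the small partner of the mitochondrial chaperonin, was at 353, 191 and 199.9 CPM with pCMV6-HKDC1, against 321, 140.3 and 162 CPM with pCMV6-Entry. The blocked log2 fold changes of these 4 genes were 0.29 to 0.33, with adjusted p from 0.00167 for DNAJB1 to 0.0126 for DNAJA1.

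Not all chaperone genes moved with them. DNAJB5, a J-domain protein, was called lower, at 2.45, 6.02 and 4.09 CPM with pCMV6-HKDC1, against 3.27, 8.39 and 8.16 CPM with pCMV6-Entry (blocked log2 fold change -0.65, adjusted p = 0.00501). HSPH1, an HSP110 exchange factor, was just short of the threshold, at 472, 284 and 286 CPM with pCMV6-HKDC1, against 449.7, 193 and 217 CPM with pCMV6-Entry (blocked log2 fold change 0.34, adjusted p = 0.055). In the HSP90 list 1 of 16 genes was called higher and 14 had a positive log2 fold change, with a median of 0.06 without the block. In the chaperonin and prefoldin list 1 of 16 was called higher and 13 were positive, with a median of 0.07. Among 22 genes of the endoplasmic reticulum chaperones and unfolded protein response, 1 was called lower, the sensor kinase gene ERN1, and the median was 0.00. HSPA5, the chief chaperone of that compartment, was at 979.8, 375 and 425 CPM with pCMV6-HKDC1, against 992, 359 and 374 CPM with pCMV6-Entry.

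**Figure D3:**
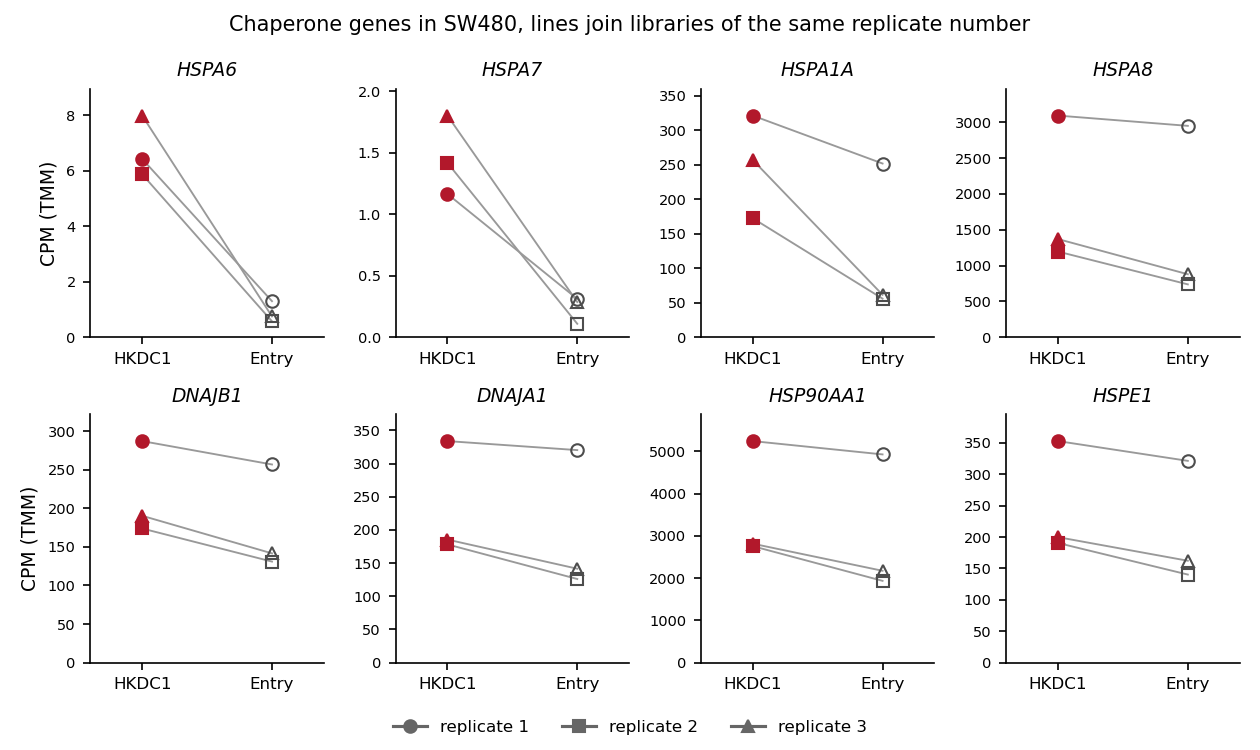
CPM of 8 chaperone genes in each SW480 library, pCMV6-HKDC1 at left and pCMV6-Entry at right in each panel, with a line joining libraries of the same replicate number and each axis starting at 0. For HSPA6 and HSPA7 all 3 filled points lie above all 3 open points; for the other 6 genes replicate 1 is high in both groups and the drop to pCMV6-Entry is seen in each pair.

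Genes of DNA replication gave 6 of the 39 higher calls. Of the 41 tested genes of DNA replication and G1/S, 6 were called higher with the block and 0 lower, 38 had a positive log2 fold change, and the median was 0.13 without and 0.16 with the block, beside 0.00 over all genes tested. UNG, which removes uracil from DNA, was at 106, 74.4 and 82.9 CPM with pCMV6-HKDC1, against 105, 53.4 and 60.4 CPM with pCMV6-Entry. PCNA, the sliding clamp of DNA polymerase, was at 373, 230.4 and 242 CPM with pCMV6-HKDC1, against 345, 179.6 and 201 CPM with pCMV6-Entry. MCM4, a subunit of the replicative helicase, was at 357, 209 and 235 CPM with pCMV6-HKDC1, against 349, 159.5 and 175 CPM with pCMV6-Entry. Pair 1 of these 3 genes differed by 0.02 to 0.11 on the log2 scale and pairs 2 and 3 by 0.26 to 0.48. GINS1 and GINS2, subunits of the complex that activates this helicase, had blocked log2 fold changes of 0.28 ± 0.06 and 0.28 ± 0.07 (SE), and FAM111B, a protease gene of S phase, had 0.33 ± 0.08. The adjusted p of these 6 genes lay between 0.0138 for MCM4 and 0.0398 for FAM111B. With limma-voom and the block UNG, GINS2 and FAM111B lost their calls, and with DESeq2 and the block FAM111B did. Without pCMV6-HKDC1 replicate 1 and without the block, the list's median was -0.0024, and with pair 1, 2 or 3 left out of the blocked fit it was 0.20, 0.11 and 0.12.

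E2F factors drive many replication genes, and the start region of GINS1, a called gene with a match to the E2F site, is printed here from RefSeq on GRCh38.p14 (chr20:25407423-25407722, plus strand). Capitals mark TTTCGCGC, TTTGGCGC or their complements, and the match begins at base 6 after the gene start.
GINS1: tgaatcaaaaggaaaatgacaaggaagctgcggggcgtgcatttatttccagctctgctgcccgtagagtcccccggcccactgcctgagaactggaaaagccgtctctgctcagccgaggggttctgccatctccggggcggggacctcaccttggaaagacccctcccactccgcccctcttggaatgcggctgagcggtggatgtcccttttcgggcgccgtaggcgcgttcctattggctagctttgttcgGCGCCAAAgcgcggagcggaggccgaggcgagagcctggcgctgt
Such a match was found in 1.18% of all promoters and 1.87% of those of tested genes, in 11 of 33 promoters of the replication list (33.3%), and in 1 of the 25 promoters of genes called higher (4%).

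Genes of mitosis did not follow with calls. Of 30 tested genes of mitosis and G2/M, 0 were called in either fit, 25 had a positive log2 fold change, and the median was 0.07. MKI67, a marker of cycling cells, was at 395, 219.6 and 249.4 CPM with pCMV6-HKDC1, against 416, 227 and 182 CPM with pCMV6-Entry. Neither were any of the 16 G1 cyclin and CDK inhibitor genes called. CCND1 (cyclin D1) was at 324, 222 and 229 CPM with pCMV6-HKDC1, against 325, 238 and 238 CPM with pCMV6-Entry.

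Sterol and lipid genes also gave higher calls. Of 24 cholesterol genes, 3 were called higher with the block and 0 lower, beside 0.165% and 0.595% of all tested genes. In that list 20 had a positive log2 fold change, with a median of 0.11. HMGCS1, which makes the precursor of mevalonate, was at 111, 78.6 and 86.0 CPM with pCMV6-HKDC1, against 109.8, 58.6 and 65.0 CPM with pCMV6-Entry. SQLE, which oxidises squalene, was at 72.8, 55.0 and 59.8 CPM with pCMV6-HKDC1, against 69.5, 43.1 and 45.9 CPM with pCMV6-Entry. FDFT1, squalene synthase, was at 161, 135 and 149 CPM with pCMV6-HKDC1, against 160.0, 105 and 112 CPM with pCMV6-Entry. Pair 1 was level to within 0.07 on the log2 scale for these 3 genes, and their blocked log2 fold changes were 0.26 to 0.28. Among 24 fatty acid genes, 3 were called higher and 0 lower: the desaturase SCD5, the acyltransferase GPAM and PCYOX1, an enzyme that breaks down prenylated cysteine. SCD5 was at 7.99, 6.07 and 6.24 CPM with pCMV6-HKDC1, against 6.80, 4.17 and 4.02 CPM with pCMV6-Entry. The fitted medians of both lists stayed above 0 under every alternative run. They were 0.05 to 0.20 for the cholesterol list and 0.03 to 0.11 for the fatty acid list. In pairs 1, 2 and 3 the cholesterol list had median log2 ratios of -0.02, 0.17 and 0.18. The fatty acid list had 0.0059, 0.12 and 0.135. Most of the calls did not hold under every alternative. With limma-voom and the block HMGCS1, FDFT1, SQLE, SCD5 and GPAM lost their calls (adjusted p from 0.0684 to 0.117), and with SW480 alone and the block FDFT1, SQLE, SCD5 and GPAM did (0.0598 to 0.0685).

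A pair of antioxidant genes was called higher within a list whose other members were not. GPX2, the gut form of glutathione peroxidase, was at 295, 262 and 298 CPM with pCMV6-HKDC1, against 295, 191 and 217 CPM with pCMV6-Entry. PRDX1, a peroxiredoxin, was at 587, 401 and 413 CPM with pCMV6-HKDC1, against 548, 317 and 354 CPM with pCMV6-Entry, and shares 2347 bases with MMACHC, which was called too. The 20 tested genes of the NRF2 list had a median log2 fold change of -0.07, and 14 were negative.

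Immediate early and AP-1 genes gave 6 of the lower calls. Of 23 tested, 6 were called lower with the block and 0 without it, 0 were called higher, 22 had a negative log2 fold change, and the median was -0.23 without and -0.24 with the block. Over all tested genes, 0.595% were called lower with the block and the median was 0.00. EGR1, a zinc finger factor induced by growth signals, was at 158, 496 and 426 CPM with pCMV6-HKDC1, against 187, 627 and 569 CPM with pCMV6-Entry. FOSL1, a FOS-family subunit of AP-1, was at 61.1, 76.7 and 68.3 CPM with pCMV6-HKDC1, against 68.8, 106 and 103 CPM with pCMV6-Entry. Each pair was lower with pCMV6-HKDC1 for both, and the groups overlapped since replicate 1 of pCMV6-Entry was low. JUNB, a JUN-family subunit, was at 45.3, 79.1 and 81.7 CPM with pCMV6-HKDC1, against 51.0, 105 and 99.8 CPM with pCMV6-Entry. MYC, the growth-promoting transcription factor, was at 863, 751 and 733 CPM with pCMV6-HKDC1, against 907, 936 and 914 CPM with pCMV6-Entry. For MYC the groups did not overlap, and its blocked log2 fold change was -0.24 ± 0.06 (SE, adjusted p = 0.0292). EGR3 and IER3, further early-response genes, had blocked log2 fold changes of -0.50 and -0.32. EGR1, EGR3 and IER3 lost their calls with DESeq2 and the block (adjusted p from 0.193 to 0.347).

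FOS and JUN themselves were not called. FOS was at 14.9, 32.3 and 27.4 CPM with pCMV6-HKDC1, against 17.6, 33.6 and 33.1 CPM with pCMV6-Entry (blocked adjusted p = 0.41). JUN was at 51.2, 60.0 and 64.4 CPM with pCMV6-HKDC1, against 49.95, 69.4 and 67.3 CPM with pCMV6-Entry (blocked adjusted p = 0.75). The median of the immediate early list stayed below 0 under every alternative run, between -0.41 and -0.15.

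Ligands and receptors upstream of these genes gave fewer calls. HBEGF, a ligand of the EGF receptor, was at 15.9, 46.4 and 30.3 CPM with pCMV6-HKDC1, against 18.3, 72.7 and 66.1 CPM with pCMV6-Entry (blocked log2 fold change -0.69, adjusted p = 0.0163). HBEGF was called in 8 of 13 blocked settings. With the block it lost its call with DESeq2, with SW480 alone, without SW480 pair 2 and without COLO320DM pair 1 or 3. EPHA2, a receptor tyrosine kinase, was at 111, 219 and 223 CPM with pCMV6-HKDC1, against 125, 300.2 and 283 CPM with pCMV6-Entry (blocked log2 fold change -0.33, adjusted p = 0.00202). The EGF-family ligands AREG and EREG were lower in pairs 2 and 3 without passing the test: AREG was at 31.0, 91.5 and 63.5 CPM with pCMV6-HKDC1, against 31.3, 127 and 124 CPM with pCMV6-Entry (blocked adjusted p = 0.405). HBEGF was the only ligand or receptor called in the list of EGF ligands and ERBB and MET receptors. That list also holds the urokinase gene PLAU, which was called lower too, so 2 of its 12 tested genes were called, and 11 were negative, with a median of -0.26. Of 19 MAPK feedback genes, 2 were called lower, EPHA2 and the phosphatase gene DUSP2, with a median of -0.08. DUSP6, the phosphatase of ERK, was at 57.5, 80.3 and 75.7 CPM with pCMV6-HKDC1, against 58.9, 81.2 and 88.7 CPM with pCMV6-Entry.

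LIF was among the most stable of the lower calls. It encodes a cytokine of the interleukin 6 family and was at 13.3, 42.5 and 34.01 CPM with pCMV6-HKDC1, against 16.6, 64.7 and 59.8 CPM with pCMV6-Entry. Each pair was lower, by -0.32, -0.60 and -0.81 on the log2 scale, and the blocked log2 fold change was -0.60 ± 0.08 (SE, adjusted p = 5.40e-05). AKNA, an AT-hook gene of microtubule organisation, was at 6.65, 20.0 and 16.7 CPM with pCMV6-HKDC1, against 8.43, 42.5 and 34.7 CPM with pCMV6-Entry, with a blocked log2 fold change of -0.90 ± 0.10 (SE, adjusted p = 1.64e-06). Of the 82 named genes called with the block, 8 were called under every blocked alternative that gave them a value: HKDC1, AL596223.2, HSPA6, HSPA7, AL671762.1, LIF, AKNA and BMERB1. Without pair 2, 73 of the 82 lost their call, and without pair 3, 58 did. With the block, 16 of the 82 lost it with DESeq2, 16 with limma-voom and 14 with SW480 alone. RELB, IL23A, IRF1, S100A2, LAMP3 and DKK4, described below, were among those lost with DESeq2.

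**Figure D4:**
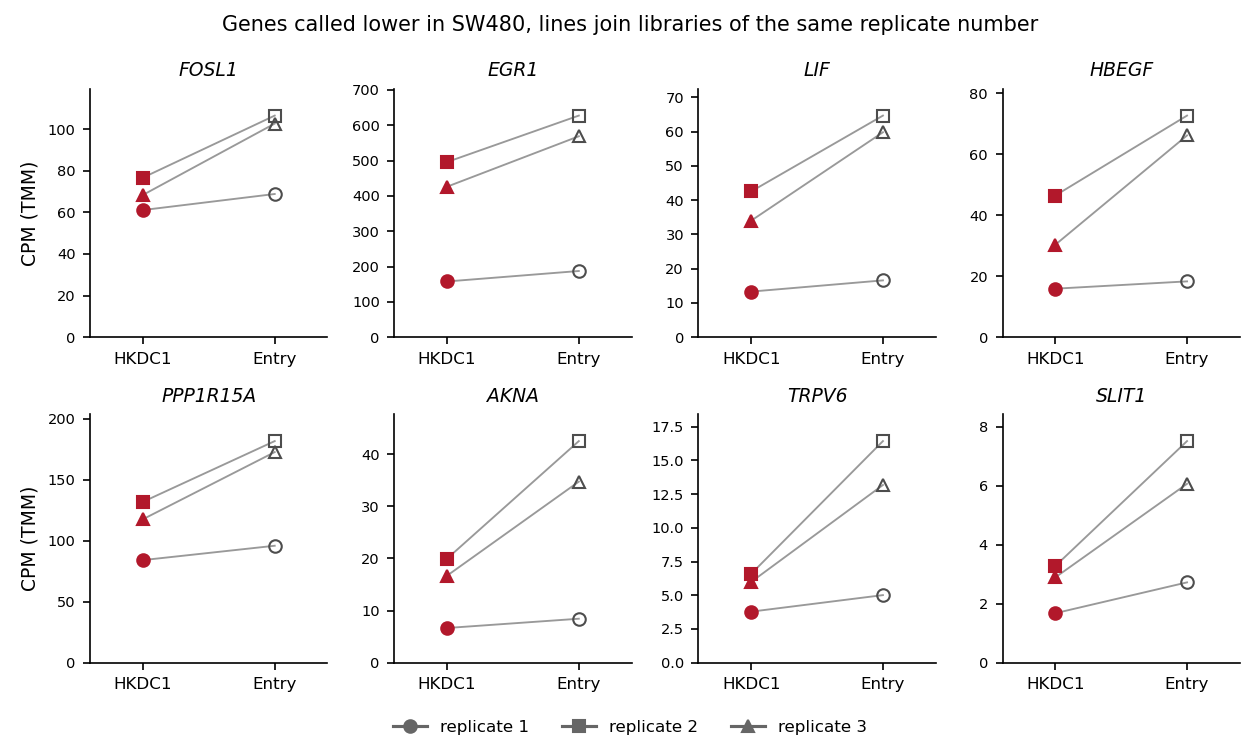
CPM of 8 genes called lower with the replicate block in each SW480 library, pCMV6-HKDC1 at left and pCMV6-Entry at right in each panel, with a line joining libraries of the same replicate number and each axis starting at 0. In every panel each line ends higher at pCMV6-Entry, and replicate 1 has the lowest value of each group.

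NF-kB and cytokine genes gave 5 lower calls, with median pair log2 ratios of -0.0021, -0.18 and -0.33 in pairs 1, 2 and 3. Of the 24 tested, 0 were called higher, 23 had a negative log2 fold change, and the median was -0.23 without and -0.19 with the block. NFKB2, a subunit of the noncanonical branch, was at 57.0, 75.7 and 79.7 CPM with pCMV6-HKDC1, against 63.1, 106 and 97.5 CPM with pCMV6-Entry. Its partner RELB was at 19.0, 39.8 and 37.99 CPM with pCMV6-HKDC1, against 19.2, 54.3 and 53.5 CPM with pCMV6-Entry. Both were lower in each pair, and their groups overlapped. TNFAIP2, induced by tumour necrosis factor, was at 48.6, 383 and 364 CPM with pCMV6-HKDC1, against 53.9, 530.3 and 484 CPM with pCMV6-Entry. IL23A, a subunit of interleukin 23, was at 2.90, 8.98 and 7.70 CPM with pCMV6-HKDC1, against 2.88, 14.5 and 13.7 CPM with pCMV6-Entry. In replicate 1 these genes were low with either plasmid, and the list averaged 3.75, 5.26 and 5.08 on the log2 CPM scale with pCMV6-HKDC1, against 3.75, 5.46 and 5.42 with pCMV6-Entry. NFKBIA, the inhibitor that NF-kB itself induces, was not called, at 26.3, 81.9 and 79.4 CPM with pCMV6-HKDC1, against 26.6, 86.7 and 87.0 CPM with pCMV6-Entry. CXCL8, a neutrophil chemokine, was not called either, at 41.7, 177 and 131 CPM with pCMV6-HKDC1, against 39.3, 205 and 204 CPM with pCMV6-Entry (blocked adjusted p = 0.66). Without pCMV6-HKDC1 replicate 1 and without the block the list's median was 0.04. With pair 1, 2 or 3 left out of the blocked fit it was -0.32, -0.18 and -0.11.

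Interferon and MHC class I genes had 2 lower calls of 32, IRF1 and LAMP3, 27 negative log2 fold changes and a median of -0.13. IRF1, a transcription factor of that response, was at 29.9, 77.0 and 66.1 CPM with pCMV6-HKDC1, against 32.7, 94.7 and 88.6 CPM with pCMV6-Entry. The calcium-binding gene S100A2 was at 13.4, 18.1 and 17.2 CPM with pCMV6-HKDC1, against 15.1, 24.9 and 26.2 CPM with pCMV6-Entry (blocked log2 fold change -0.42, adjusted p = 0.0216).

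Start regions of 3 genes called lower are printed because they hold the site of AP-1, TGANTCA, or the cyclic AMP response element, TGACGTCA, each searched on both strands and in capitals. They are from RefSeq on GRCh38.p14: chr12:56338634-56338933 on the plus strand for IL23A, chr1:153565795-153566094 on the minus strand for S100A2 and chr19:48872171-48872470 on the plus strand for PPP1R15A. The match begins 77 bases before the gene start in IL23A, 52 bases before it in S100A2 and 58 bases before it in PPP1R15A.
IL23A: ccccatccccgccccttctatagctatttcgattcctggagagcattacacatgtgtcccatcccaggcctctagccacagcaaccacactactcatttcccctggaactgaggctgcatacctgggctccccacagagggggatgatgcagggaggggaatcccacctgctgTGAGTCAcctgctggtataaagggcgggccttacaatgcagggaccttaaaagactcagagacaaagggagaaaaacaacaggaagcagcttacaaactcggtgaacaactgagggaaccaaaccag
S100A2: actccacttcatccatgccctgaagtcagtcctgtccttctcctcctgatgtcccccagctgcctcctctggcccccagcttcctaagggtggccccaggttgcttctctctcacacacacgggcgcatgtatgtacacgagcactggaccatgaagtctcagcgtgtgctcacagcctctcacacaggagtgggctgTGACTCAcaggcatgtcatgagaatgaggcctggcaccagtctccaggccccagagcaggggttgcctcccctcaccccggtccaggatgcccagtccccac
PPP1R15A: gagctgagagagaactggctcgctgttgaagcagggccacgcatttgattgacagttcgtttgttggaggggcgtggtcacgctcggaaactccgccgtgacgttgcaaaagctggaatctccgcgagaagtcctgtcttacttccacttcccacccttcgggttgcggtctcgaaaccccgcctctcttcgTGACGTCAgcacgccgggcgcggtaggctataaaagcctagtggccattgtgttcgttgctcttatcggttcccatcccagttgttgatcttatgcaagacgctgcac
An AP-1 match was found in 12 of the 99 promoters of genes called lower (12.1%), in 3 of the 25 of genes called higher (12%), in 4.96% of those of tested genes and in 7.76% of all promoters. The cyclic AMP response element was found in 4 of the 99 (4.04%), in 0 of the 25, in 3.02% of those of tested genes and in 1.98% of all promoters.

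Genes of the integrated stress response had calls in the lower direction. Of 24 tested ATF4-linked genes, 4 were called lower with the block and 0 higher, 20 had a negative log2 fold change, and the median was -0.11 in both fits. PPP1R15A, the phosphatase subunit that ends the translation block, was at 84.0, 132 and 118 CPM with pCMV6-HKDC1, against 95.8, 182 and 173 CPM with pCMV6-Entry (blocked log2 fold change -0.40 ± 0.06, SE, adjusted p = 0.000263). DDIT3, the factor known as CHOP, was at 41.3, 84.3 and 73.4 CPM with pCMV6-HKDC1, against 41.9, 109 and 96.0 CPM with pCMV6-Entry. DDIT3 was called in 8 of 13 blocked settings, losing its call with DESeq2, limma-voom, SW480 alone and without SW480 pair 2 or 3. DDIT4, an inhibitor of mTORC1 signalling, was at 138, 333 and 316 CPM with pCMV6-HKDC1, against 158, 391 and 391 CPM with pCMV6-Entry. NIBAN1, a stress-induced gene, was at 2.50, 7.71 and 6.96 CPM with pCMV6-HKDC1, against 2.91, 18.0 and 13.9 CPM with pCMV6-Entry. ATF4 was not called, at 477, 547 and 550.0 CPM with pCMV6-HKDC1, against 490.5, 562 and 588 CPM with pCMV6-Entry. TRIB3, an ATF4 target, was at 140.3, 466 and 365 CPM with pCMV6-HKDC1, against 152, 686 and 661 CPM with pCMV6-Entry, and did not pass the test (blocked adjusted p = 0.16). The list's median was 0.09 without pCMV6-HKDC1 replicate 1 and without the block, and -0.15, -0.13 and -0.11 with pair 1, 2 or 3 left out of the blocked fit.

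Among 22 p53 and apoptosis genes, GADD45A and the death receptor gene TNFRSF10B were called lower and the median was -0.07. GADD45A, a growth arrest gene, was at 101, 221 and 184 CPM with pCMV6-HKDC1, against 107, 266 and 261 CPM with pCMV6-Entry. CDKN1A (p21) was not called, at 18.8, 61.2 and 51.7 CPM with pCMV6-HKDC1, against 19.3, 64.8 and 63.9 CPM with pCMV6-Entry. LAMP3, a lysosomal membrane protein that interferon induces, was at 1.73, 8.22 and 7.07 CPM with pCMV6-HKDC1, against 1.82, 17.5 and 16.0 CPM with pCMV6-Entry. In the autophagy and lysosome list, 2 of 28 were called lower, SQSTM1 and MAP1LC3B, and the median was -0.02. MAP1LC3B was called in 7 of 13 blocked settings and SQSTM1 in 10. SQSTM1, the autophagy receptor p62, was at 284, 297 and 324 CPM with pCMV6-HKDC1, against 303, 385 and 377 CPM with pCMV6-Entry (blocked log2 fold change -0.23, adjusted p = 0.0352).

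Genes of matrix contact and the cytoskeleton also gave lower calls. Of 37 tested genes of EMT factors, matrix, integrins and proteases, 4 were called lower with the block and 0 higher, LAMB3, ITGB4 and SERPINE2 among them, 31 had a negative log2 fold change, and the median was -0.13 in both fits. LAMB3, a chain of the epithelial laminin in the basement membrane, was at 105, 177 and 168 CPM with pCMV6-HKDC1, against 118, 267 and 238 CPM with pCMV6-Entry. ITGB4, an integrin subunit that binds this laminin, was at 144, 109 and 122 CPM with pCMV6-HKDC1, against 165, 150.2 and 139.9 CPM with pCMV6-Entry. PLAU, the urokinase protease, counted in the EGF list, was at 2.08, 14.7 and 11.2 CPM with pCMV6-HKDC1, against 2.70, 22.1 and 21.6 CPM with pCMV6-Entry. Each pair was lower for LAMB3, ITGB4 and PLAU, and the groups of each overlapped. SERPINE2, a protease inhibitor, was at 4.07, 7.27 and 5.10 CPM with pCMV6-HKDC1, against 4.20, 13.2 and 12.3 CPM with pCMV6-Entry (blocked log2 fold change -0.79, adjusted p = 0.0192). SERPINE2 was called in 9 of 13 blocked settings, losing its call with SW480 alone, without SW480 pair 2 or 3 and without COLO320DM pair 1.

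Actin-linked genes had calls in the same direction. FLNA, which cross-links actin filaments, was at 747, 639 and 741 CPM with pCMV6-HKDC1, against 852, 899.7 and 797 CPM with pCMV6-Entry, and its groups did not overlap (blocked log2 fold change -0.26, adjusted p = 0.0248). PDLIM2, an actin-associated protein, was at 8.56, 7.90 and 6.33 CPM with pCMV6-HKDC1, against 9.76, 11.7 and 11.6 CPM with pCMV6-Entry, also without overlap. AMOTL2, a YAP target that binds YAP, was at 6.65, 13.2 and 13.1 CPM with pCMV6-HKDC1, against 8.46, 20.9 and 17.8 CPM with pCMV6-Entry. Of 28 YAP, TEAD and actin genes, 3 were called lower and 22 were negative, with a median of -0.13 without and -0.12 with the block. The keratin list had 3 lower calls of 17, KRT16, KRT80 and KRT86, and a median of -0.02. KRT86 shares 2887 bases with KRT7 on the same strand. KRT7 was not called, with a blocked log2 fold change of -0.76. The part of KRT7 reads in the KRT86 count was not tested. KRT16, a keratin of stressed epithelium, was at 1.91, 3.11 and 2.38 CPM with pCMV6-HKDC1, against 2.23, 6.67 and 6.75 CPM with pCMV6-Entry. None of 27 epithelial junction genes was called.

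Genes of other lists were called in either direction. Of 31 tested axon guidance genes, 3 were called lower and 1 higher with the block, beside 0.595% and 0.165% of all tested genes. In that list 24 had a negative log2 fold change, with a median of -0.11 in both fits. The calcium channel gene TRPV6 was at 3.78, 6.58 and 5.98 CPM with pCMV6-HKDC1, against 5.01, 16.4 and 13.2 CPM with pCMV6-Entry (blocked log2 fold change -1.01 ± 0.14, SE, adjusted p = 0.000111). SLIT1, an axon guidance ligand, was at 1.68, 3.28 and 2.89 CPM with pCMV6-HKDC1, against 2.72, 7.52 and 6.07 CPM with pCMV6-Entry (blocked log2 fold change -1.02 ± 0.15, SE, adjusted p = 0.000205). UNC5B, a netrin receptor, was at 12.7, 11.7 and 10.2 CPM with pCMV6-HKDC1, against 14.6, 19.4 and 17.3 CPM with pCMV6-Entry, and its groups did not overlap. SEMA3C, a secreted semaphorin, was called higher, at 1.45, 1.47 and 2.66 CPM with pCMV6-HKDC1, against 1.06, 0.872 and 1.25 CPM with pCMV6-Entry, again without overlap. SEMA3C was called in 9 of 13 blocked settings, losing its call with limma-voom, SW480 alone and without SW480 pair 2 or 3. DKK4, a secreted WNT antagonist, was higher too, at 22.5, 31.2 and 32.5 CPM with pCMV6-HKDC1, against 18.4, 22.3 and 24.4 CPM with pCMV6-Entry. WNT7B, a WNT ligand, was called lower, at 0.881, 2.25 and 2.00 CPM with pCMV6-HKDC1, against 0.960, 5.15 and 4.35 CPM with pCMV6-Entry. AXIN2, the feedback gene of WNT signalling, was not called, at 256, 186 and 205 CPM with pCMV6-HKDC1, against 252, 171 and 177 CPM with pCMV6-Entry.

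Of the remaining genes named by size or p, UPP1, which splits uridine, was called lower at 7.62, 20.2 and 19.2 CPM with pCMV6-HKDC1, against 8.33, 36.4 and 34.02 CPM with pCMV6-Entry. LIX1 was called higher at 2.81, 6.14 and 6.10 CPM with pCMV6-HKDC1, against 2.18, 3.95 and 4.42 CPM with pCMV6-Entry. LIX1 was called in 9 of 13 blocked settings. FAM81A was called higher with a blocked log2 fold change of 0.32, and was called in 7 of 13 blocked settings. The lower calls UCN2 (a urocortin), DMGDH (a mitochondrial dehydrogenase of choline breakdown) and ENSG00000286230 had blocked log2 fold changes of -0.92, -0.85 and -1.05. The remaining list members called lower were DUSP2, ITPKA, JAG1, LBH, MCC and NDRG1, with blocked log2 fold changes of -0.34, -0.77, -0.30, -0.54, -0.40 and -0.46. LBH was called in 8 of 13 blocked settings and NDRG1 in 9.

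**Figure D5:**
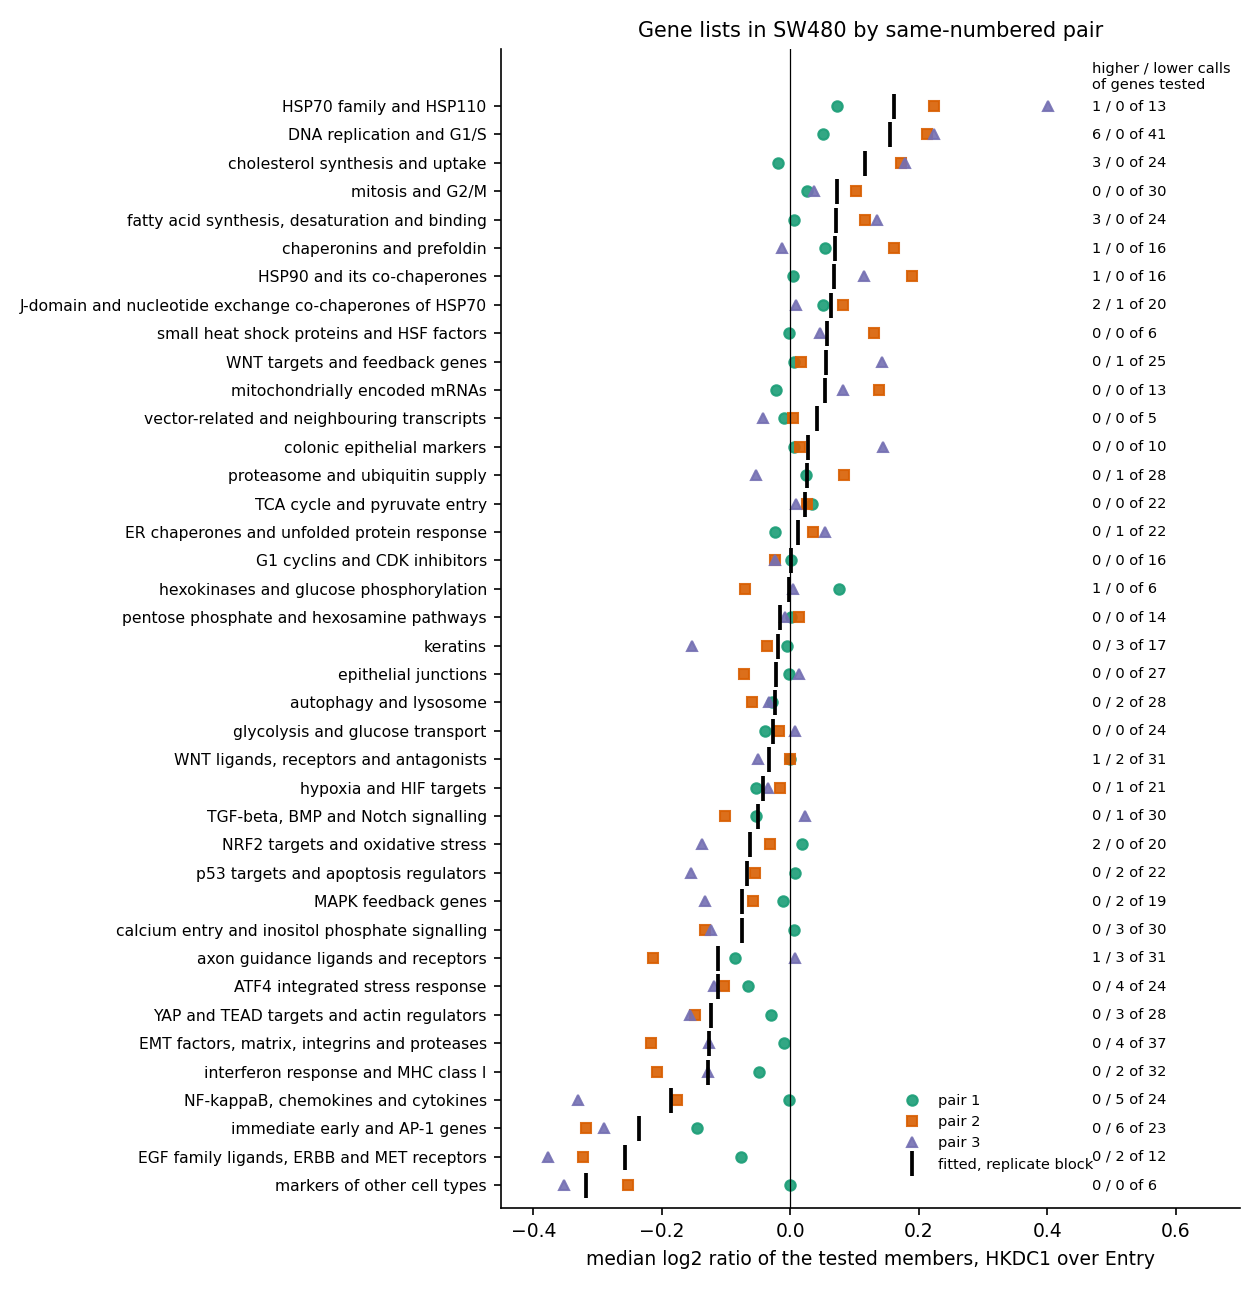
Median log2 ratio of pCMV6-HKDC1 over pCMV6-Entry of the tested members of each of the 39 gene lists, by same-numbered pair (circle, square and triangle) and as fitted with the replicate block (bar), with calls out of genes tested at right. The HSP70 and replication lists are at the top, with fitted medians of 0.16, and the EGF ligand and immediate early lists are near the bottom, at -0.26 and -0.24.

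Between the lines, the response to pCMV6-HKDC1 was compared by the interaction of plasmid and line. Without the block 2 genes (0.00844% of those tested) differed, HKDC1 and AL596223.2, and with the block 10 did (0.0422%). With limma-voom and the block 3 genes differed. HKDC1 was at 13578, 12231 and 14308 CPM in SW480 with pCMV6-HKDC1 and 38.4, 34.7 and 34.1 CPM in SW480 with pCMV6-Entry, and at 6580, 9179 and 9640 CPM in COLO320DM with pCMV6-HKDC1 and 0, 0.024 and 0.023 CPM in COLO320DM with pCMV6-Entry. HKDC1 was thus almost without counts in COLO320DM with pCMV6-Entry, and since the fitted change there depends on the prior count, no fold is given for that line. HSPA6 was at 1.78, 1.68 and 2.23 CPM in COLO320DM with pCMV6-HKDC1, against 0.683, 1.36 and 1.02 CPM with pCMV6-Entry, a smaller change than in SW480 (difference 2.06 ± 0.31 on the log2 scale, SE, blocked adjusted p = 0.000525). The other 7 genes were AKNA, EGR1, EPHA2, UNC5B, FLNA, GTPBP2 and BMERB1, each called lower in SW480. AKNA was at 29.6, 46.7 and 45.1 CPM in COLO320DM with pCMV6-HKDC1, against 28.0, 43.9 and 38.5 CPM with pCMV6-Entry. DNAJB1 rose in both lines: in COLO320DM it was at 69.9, 73.9 and 72.2 CPM with pCMV6-HKDC1, against 58.9, 55.7 and 54.7 CPM with pCMV6-Entry (blocked log2 fold change 0.35, adjusted p = 0.00698), and the difference between lines was -0.02.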

How the data were processed

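The deposited table holds whole-number read counts per Ensembl gene for 12 libraries, made by the authors. Per the submitters' processing notes the tools were HISAT2 2.1.0 and limma and the build was GRCh38; the read counter, gene annotation and strandedness are not given in the sources used here. Per the labels' protocols, mRNA was captured with poly-T beads and primed at random.

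The SW480 comparison was fitted with edgeR 4.0.16 in R 4.3.3 (quasi-likelihood test, TMM scaling, filterByExpr with a minimum count of 10 and a minimum total of 15). All 12 libraries and their 4 groups shared 1 estimate of spread, with 8 residual degrees of freedom. Adjusted p-values are Benjamini-Hochberg values over all 23684 tested genes, with a threshold of 0.05, and fold changes are pCMV6-HKDC1 over pCMV6-Entry. A second fit added a block for replicate number, separately by line. Same-numbered libraries of the 2 groups deviated together (correlations 0.884, 0.703 and 0.53), so the numbers in the labels were taken to pair them. Numbers 2 and 3 correlated as highly with each other (0.732 and 0.605) as with themselves, so the check does not show that 2 pairs with 2 and 3 with 3, and the labels do not say what a number shares. TPM was computed from the counts with the gene lengths given in the deposited count table. Gene types came from GENCODE 29, which may differ from the authors' annotation. Alternatives were DESeq2 1.42.0, limma-voom (limma 3.58.1), RLE scaling, no count filter, SW480 alone, HKDC1 and overlapping genes left out, and each library or pair left out. The script was tested on simulated data. Promoter sequences are from RefSeq on GRCh38.p14, matched for 25 of 39 genes called higher and 99 of 141 called lower.

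Genes named in the text were those called without the block; with the block, the 12 largest changes in each direction (protein coding, at least 1 CPM, same direction in all 3 pairs) and the 8 smallest p in each direction; called members of the 39 lists; HKDC1, its neighbours, the hexokinases and vector-related transcripts; and up to 10 genes that differed between lines. Uncalled list members are named as the best known of their list, chosen with their values known. The members and lists were chosen with earlier results of these data known. Results for a few genes are not reported here.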

Additional observations from a re-analysis of the deposited data

Results flagged for a closer look

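With the replicate block, 10 genes responded differently in SW480 and COLO320DM in the edgeR quasi-likelihood test of the interaction, given here as the log2 fold change in SW480 minus that in COLO320DM. The difference was 2.06 for HSPA6, -10.23 for HKDC1 and -9.10 for AL596223.2. HKDC1 and AL596223.2 had at most 0.024 CPM in COLO320DM with pCMV6-Entry, so the size of their difference depends on the prior count. It was -1.03 for AKNA, -0.68 for EGR1, -0.52 for EPHA2 and -0.71 for UNC5B. It was -0.47 for FLNA, -0.54 for GTPBP2 and -0.60 for BMERB1. Without the block HKDC1 and AL596223.2 alone passed, and the other 8 had an adjusted p of 1.

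EGR1 was at 1.71, 5.54 and 5.30 CPM in COLO320DM with pCMV6-HKDC1, against 2.097, 3.60 and 3.96 CPM in COLO320DM with pCMV6-Entry, far below its level in SW480. GTPBP2, a GTP-binding protein gene, was at 27.1, 37.2 and 37.0 CPM in SW480 with pCMV6-HKDC1, against 30.02, 59.8 and 55.1 CPM in SW480 with pCMV6-Entry. BMERB1 was at 4.95, 7.19 and 6.41 CPM in SW480 with pCMV6-HKDC1, against 6.18, 11.2 and 11.1 CPM in SW480 with pCMV6-Entry.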

How the results depend on the processing

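The count of genes called in SW480, 3 without the block, was 180 with the replicate block. Under the block it was 98 with DESeq2, 157 with limma-voom, 344 with no count filter and 165 with SW480 alone; without the block SW480 alone gave 2, HSPA6 being lost. Among alternatives chosen after seeing the data, the blocked count was 178 with RLE scaling and 172 without HKDC1 and its overlapping genes, and leaving out replicate 1 of both SW480 groups gave 10 without the block. Without HKDC1 and its overlapping genes, 1 gene was called without the block. Leaving out 1 library or pair gave 3 to 537 genes; without pCMV6-Entry replicate 1 it was 5.

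For the difference between lines the count, 2 without the block, was 10 with the replicate block, 13 with DESeq2 and the block, 3 with limma-voom and the block, 67 with the block and no count filter, 11 with the block and RLE scaling, and 8 with the block and without HKDC1 and its overlapping genes. It was 0 in edgeR without those genes and without the block, where 374 genes had an unadjusted p under 0.05. These are fewer than a share of 0.05 of the tests, the share expected where nothing differs. Leaving out 1 library or pair gave 2 to 139.

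The HKDC1 log2 ratio of 8.53 kept its direction, at 8.45 to 8.57 with 1 library left out. Over 91 named genes and 32 alternatives, 2044 of 2906 values kept direction and side of the threshold, 828 passed it newly, 1 lost it (HSPA6, SW480 alone without the block) and 33 turned in sign, in 17 genes. With 1 library or pair left out the log2 fold change ran from -0.084 to 0.80 for FAM111B, -0.11 to 0.79 for HSP90AA1, -0.088 to 0.69 for HSPE1, -0.10 to 0.77 for DNAJA1, -0.59 to 0.043 for DDIT4, -0.033 to 0.65 for MCM4, -0.030 to 0.59 for GINS1, -0.035 to 0.54 for PCNA and -0.95 to 0.056 for TNFAIP2; the turned sign was without pCMV6-HKDC1 replicate 1. It ran from -1.11 to 0.066 for NDRG1, -0.60 to 0.25 for AL596223.1, -0.084 to 0.020 for HK1, -0.096 to 0.025 for ADPGK, -0.10 to 0.092 for G6PC3, -0.21 to 0.19 for GH1, -0.12 to 0.26 for VPS26A and -0.14 to 0.38 for TACR2. Without replicate 1 of both groups and without the block, G6PC3 was at -0.021 and TACR2 at -0.12. Fits with 1 library left out had no block, so the 2 groups then held unlike replicate numbers. In those fits a difference between plasmids and one between replicates cannot be told apart. The cause of the turned signs was not tested.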

Other observations

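Of 16 genes that averaged at least 1 CPM and had a blocked log2 fold change beyond 1 in either direction, 6 were not called, and these were chosen after their values were seen. SLC2A4, the insulin-responsive glucose transporter, was at 1.42, 2.30 and 0.973 CPM with pCMV6-HKDC1, against 15.4, 1.58 and 0.792 CPM with pCMV6-Entry, so 1 library held the high value. RAB34 was at 0.171, 0.147 and 0.344 CPM with pCMV6-HKDC1, against 0.182, 5.88 and 0.264 CPM with pCMV6-Entry, again with 1 high library. AC026803.2 was at 7.17, 1.71 and 9.42 CPM with pCMV6-HKDC1, against 3.37, 0.627 and 0.528 CPM with pCMV6-Entry. The others were HSPA1A, HSPA1B and HLA-J.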
